A study of Bos taurus with 8 samples.

Results

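A group of immediate-early genes outside the AP-1 family were followed across 8 single-colour arrays of bovine whole blood RNA: EGR1, EGR2, EGR3, NR4A1, NR4A2, NR4A3, IER2, IER3, KLF6 and RHOB. They are 10 of the 16966 gene symbols that the deposited table of averages pairs with probes, and they were picked by symbol, each probe being kept apart. The 10 genes have 23 probes of 60 bases. In the CPE group, fresh blood from Holstein Friesian cows was kept with 10 µg/ml of a phenolic extract of cowpea leaf for 30 min at 37 °C under 5% CO2, and in the CONTROL group blood was kept for the same time with no extract. All blood came from 5 female cows, healthy and without mastitis, at the close of a 60-day course of a probiotic feed, so both groups share that history. The labels used here state no ages.

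Each group had 4 arrays and lay on a slide of its own. Per the series text, RNA was pooled by group before it went on the arrays. Repeat arrays may thus be technical, and spreads and p-values measure differences between arrays, not between cows. The slides also differed in scan day and in the version of the spot grid, and batch and group cannot be told apart.

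Immediate-early genes are switched on within minutes of a signal at the cell surface, because the kinases and transcription factors that act on them are already in the cell and no new protein has to be made. Their transcripts are short-lived, so their level follows recent signalling. In blood they respond to antigen receptors, chemokines, microbial products and adhesion, and also to handling of the sample. The members cover several roles: EGR1 to EGR3 are zinc finger transcription factors, NR4A1 to NR4A3 are orphan nuclear receptors, KLF6 is a zinc finger factor of the Krüppel-like family, IER2 and IER3 are small nuclear and stress-response proteins, and RHOB is a small GTPase that is made on demand.

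Large areas of each array were dim. A spot was counted as lying in bright surroundings on an array when the 90th percentile of raw brightness over its 61 nearest spots was less than 1.5 log2 units below the bright level of that array, which is the 90th percentile of those local values. By this measure 31.7% to 50.1% of the spots of an array lay in bright surroundings, and 12936 spots (29.5%) did so on all 8; these spots are called the bright area. The scanner software called 26.4% to 49.9% of spots well above background and no spot saturated. The 75th percentile of processed signal was 135 to 280 intensity units on the CPE arrays and 53.4 to 150 on the CONTROL arrays. Within the bright area it was 401 to 752 and 586 to 771, the lowest being that of CPE array 3. Raw signals of that array thus read low in the bright area, although its whole-array value, 280, was the highest. Levels below are given after scaling.

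Of the 23 member probes, 8 lay in the bright area, 6 lay in dark surroundings on all 8 arrays and 9 were bright on some arrays only. Well above background on all 8 arrays were 7 probes, and on none 8 probes. Both conditions held for 5 probes of 4 genes: NR4A2, IER2, KLF6 and 2 probes of RHOB. Just inside the limit of bright surroundings was the EGR1 probe A_73_111154, whose darkest array lay at −1.44 relative to the bright level (log2). Just outside was the EGR2 probe A_73_104588, bright on 7 arrays and at −3.00 on CONTROL array 4. Differences between CPE and CONTROL in these genes were already known when the genes were chosen, so the members' values are given as a description, with no p-value.

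In the bright area, NR4A2, KLF6 and both probes of RHOB read lower in CPE, IER2 read higher, and 1 probe of EGR1 read higher while the other overlapped between groups. In bulk blood, fewer cells of a type and less RNA per cell cannot be told apart. For the 5 probes well above background throughout, no CPE array overlapped with the CONTROL arrays. Of 7 member probes with enough signal for the fit over the bright area, 2 were past its threshold as higher and 4 as lower, and in 6 the groups did not overlap. Over all 8006 probes in that fit, 48.4% were past the threshold (adjusted p under 0.05, limma), 24.5% higher and 23.9% lower, and the groups did not overlap in 50.5%. The median log2 difference was −0.74 over the 7 member probes and 0.03 over all probes. The rule for choosing members used this contrast and the fit kept only probes bright enough in at least 1 group, so nothing is read from these counts.

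**Figure D1:**
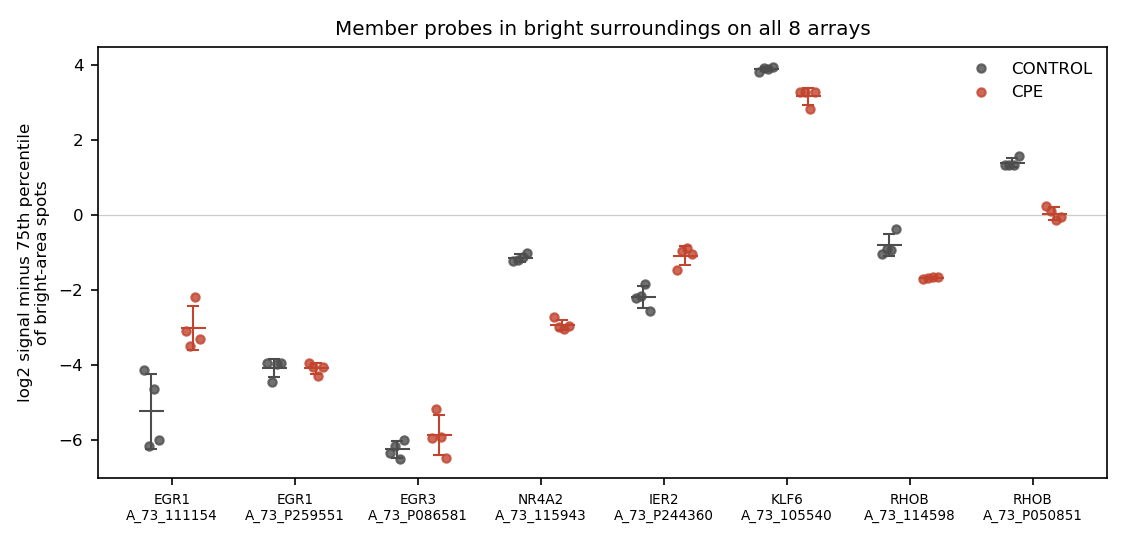
Log2 processed signal minus the 75th percentile of bright-area spots for the 8 member probes in bright surroundings on all arrays. Points are the 4 arrays of each group, bars the mean ± SD. NR4A2, KLF6 and both RHOB probes sit lower in CPE with no overlap, IER2 sits higher, and the EGR3 probe never passed the background call.

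NR4A2, also called NURR1, binds DNA without a known ligand and in leukocytes follows antigen receptor and inflammatory signals. Its probe in the bright area read 112.7, 87.4, 48.7 and 88.5 intensity units on CPE arrays 1 to 4 and 325.6, 314.0, 335.8 and 290.5 on CONTROL arrays 1 to 4. Every CPE array was below every CONTROL array. After scaling (log2 relative to the 75th percentile), CPE averaged −2.94 ± 0.14 and CONTROL −1.15 ± 0.11 (SD, n = 4 each), a difference of −1.79 or 3.45-fold. Normexp background correction adds an offset of 50 units to every signal, which narrows the log2 differences of dim probes. With it the difference was −0.89. With local centring, which subtracts the median deviation of the 61 nearest bright-area spots on each array, it was −1.53. The first 30 bases of this probe are shown because the largest lower reading among the 5 probes rests on it, beside a probe of another stretch of the same transcript (NM_001076208), which was not well above background.
NR4A2 A_73_115943: tgttacgtgggtggcatgagttgaagaagg
NR4A2 A_73_P338101: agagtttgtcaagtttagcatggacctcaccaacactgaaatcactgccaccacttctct

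The second of these, A_73_P338101, lay in dark surroundings on all 8 arrays and read 3.72 to 31.5 units in CPE and 10.15 to 17.5 in CONTROL, not well above background on any. The remaining NR4A2 probe, A_73_P368881, lay in bright surroundings on 3 arrays of each group and read 12.7 to 33.3 units in CPE and 9.15 to 39.6 in CONTROL, again not well above background on any array. The lower reading of NR4A2 is carried by 1 of its 3 probes, and the other 2 give no level to set beside it.

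KLF6 takes part in responses of macrophages and neutrophils to inflammatory signals. Its probe in the bright area, A_73_105540, read 7197, 6739, 2807 (array 3) and 6737 units in CPE and 10820, 10992, 10826 and 9029.7 in CONTROL. All 4 CPE arrays were lower, CPE array 3 most. Scaled, CPE averaged 3.15 ± 0.23 and CONTROL 3.89 ± 0.06 (SD, n = 4 each), a difference of −0.74 or 1.66-fold. Without CPE array 3 it was −0.62, and with local centring it was −0.51.

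A second KLF6 probe, A_73_P250821, overlaps the first by 41 bases: bases 20 to 60 of the first are bases 1 to 41 of the second. Both come from NM_001035271. A stretch of each is shown because probes that share transcript bases differed between groups with opposite signs. Capitals mark shared bases.
KLF6 A_73_105540, bases 15 to 44: gaatgGGTGATGCATGCTTTATTAAGGCTC
KLF6 A_73_P250821, bases 1 to 30: GGTGATGCATGCTTTATTAAGGCTCTTTTT

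The overlapping probe read 3281, 3039, 3215 and 2638 units in CPE, and 945.2, 10.15, 526.6 and 9.15 in CONTROL. The groups did not overlap here either, but CPE was the higher. It was well above background on all 4 CPE arrays and on 2 of 4 CONTROL arrays. The log2 difference, scaled over the whole array, came out at 4.26, against −1.86 for the first probe on the same scale; its size depends on the floor of the signal on CONTROL arrays 2 and 4 and is not a measured fold. Relative to the bright level (log2), its surroundings lay at −1.75 to −1.3 on the CPE arrays and at −4.67 to −3.00 on the CONTROL arrays, and CONTROL arrays 2 and 4 were at the lowest signal those arrays give. For the first probe the surroundings lay at −0.62 to −0.36 on all 8 arrays. The brightness of the surroundings moved with the reading of the second probe, and its part in that reading was not tested. Scaled over the whole array, the median log2 difference of the 61 nearest spots was −0.41 for the second probe and −1.35 for the first.

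The remaining KLF6 probe, shown as a separate stretch of the transcript that does not overlap the other probes, read 114.0, 16.1, 206.6 and 14.1 units in CPE and 144.4, 92.6, 140.0 and 9.15 in CONTROL.
KLF6 A_73_P421856: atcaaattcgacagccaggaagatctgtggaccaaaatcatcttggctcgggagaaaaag

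The groups overlapped for this probe, and its signals followed the surroundings within each group. The arrays under 20 units, CPE arrays 2 and 4 and CONTROL array 4, had surroundings at −5.02 to −4.42, and the other 5 arrays at −1.78 to −1.07. One more probe is described in the deposited table as a predicted KLF6 transcript variant but carries no gene symbol there, so it was not a member.

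**Figure D2:**
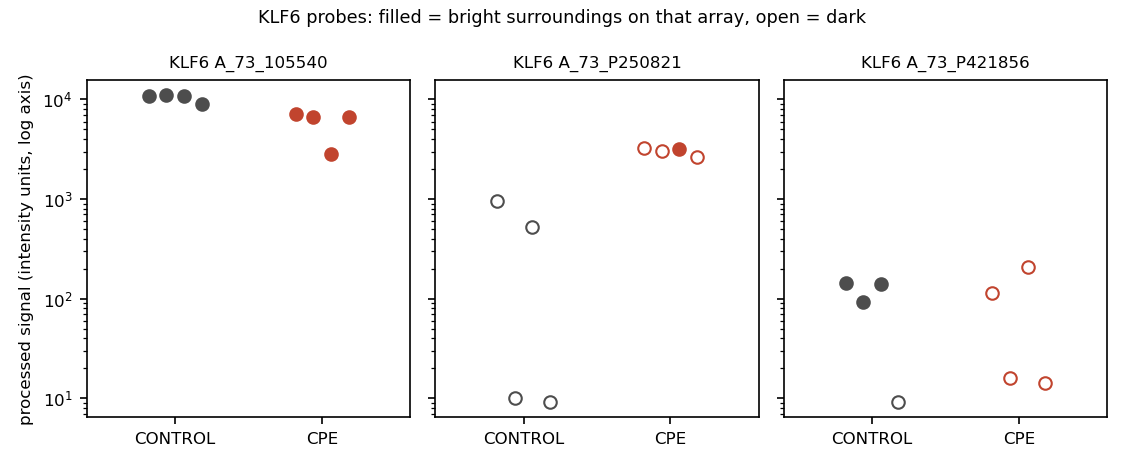
Processed signal in intensity units on a log axis for the 3 KLF6 probes, 1 point per array. Filled points had bright surroundings on that array and open points had dark surroundings. The left probe is filled throughout and lower in CPE, while the middle probe, which shares 41 bases with it, reads higher in CPE and is open on 7 of 8 arrays.

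RHOB, unlike most small GTPases, has a short-lived transcript and protein that growth factors and stress induce; it acts in endosome traffic and cell adhesion. Like EGR1 it had 2 probes in the bright area, both of NM_001077922 and without overlap, and unlike those of EGR1 both were well above background on all 8 arrays. Probe A_73_114598 read 228.7, 213.5, 125.6 and 219.8 units in CPE and 373.1, 388.8, 383.4 and 449.4 in CONTROL. Probe A_73_P050851 read 882.7, 741.4, 366.9 and 667.1 in CPE and 1923, 1836, 1820.2 and 1731 in CONTROL. At both, every CPE array was below every CONTROL array. After scaling, the first was −1.69 ± 0.02 in CPE and −0.82 ± 0.30 in CONTROL, a difference of −0.87 (1.83-fold). The second was 0.03 ± 0.16 and 1.38 ± 0.12, a difference of −1.35 or 2.55-fold (SD, n = 4 each). With normexp the first difference was −0.49 and the second −1.13. With local centring they were −0.68 and −0.92. Parts of both are shown as a pair of separate probes of 1 gene that read the same way in bright surroundings. Capitals mark AATAAA, the letters of the common polyadenylation signal.
RHOB A_73_114598, bases 1 to 30: gccaagcctcttcagggtgtgtggctgtgt
RHOB A_73_P050851, bases 23 to 52: ctctgtacagagAATAAAcctcccccttgt

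IER2 is a small nuclear protein made early after growth factor stimulation. Its probe in the bright area, A_73_P244360, read 270.4, 357.5, 215.8 and 339.0 units in CPE and 164.7, 163.0, 204.5 and 99.0 in CONTROL. All CPE arrays were higher, with a narrow gap in raw units between CPE array 3 and CONTROL array 3. After scaling these arrays read −0.89 and −1.84, and the CPE array closest to CONTROL array 3 was array 1, at −1.47. Scaled, CPE averaged −1.09 ± 0.26 and CONTROL −2.20 ± 0.30 (SD, n = 4 each), a difference of 1.11 or 2.15-fold. It depended on the scaling and processing. Over the whole array the difference was −0.02 and the groups overlapped, where the median of all probes tested was −0.81. In the bright area it was 1.13 with quantile normalisation, 0.93 without scaling, 0.76 with local centring and 0.64 with normexp. The other IER2 probe is of the same transcript (NM_001075871) and holds AATAAA, in capitals; the bright probe is shown in full and the other in part because they differ in their readings.
IER2 A_73_P244360: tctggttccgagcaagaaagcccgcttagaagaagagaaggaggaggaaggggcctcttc
IER2 A_73_114011, bases 31 to 60: agaatcgccagataggaaAATAAAgaccaa

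Probe A_73_114011 read 2504, 13.2, 6763 and 136.0 units in CPE and 2540, 5137, 7379 and 10.16 in CONTROL. The groups overlapped and arrays of the same group differed by more than the groups did. The 3 lowest arrays had the 3 darkest surroundings, at −5.06 to −4.5, against −3.53 to −1.47 on the other 5. IER3, which limits cell death and NF-kB signalling after stress, had no bright spot. Its probe A_73_P504623 read 6.95 to 52.7 units in CPE and 9.15 to 51.8 in CONTROL, well above background on 1 CPE and 2 CONTROL arrays, and A_73_P031796 was not well above background on any array.

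The EGR genes bind the same GC-rich DNA element, EGR1 in most cell types and EGR2 and EGR3 mainly after antigen receptor signals in lymphocytes, where they restrain activation. The 3 EGR1 probes (NM_001045875 for A_73_P259551 and A_73_P038551) did not read alike. Probe A_73_111154 read 88.5, 61.1, 87.6 and 70.2 units in CPE and 43.8, 10.15, 29.1 and 9.15 in CONTROL, well above background on all 4 CPE arrays and on no CONTROL array. It averaged −3.03 ± 0.58 in CPE (SD, n = 4), and the measured mean in CONTROL was −5.24. Each CONTROL array was then set to its lowest well-above-background level in the bright area, or to the probe's own level where that was higher. With that, CPE was 2.28-fold higher on this scale (1.19 in log2). The lowest level is taken over all bright-area probes and is not the detection limit of this spot, so the value is not a strict bound. As no CONTROL array passed the background call, plain log2 differences of this probe are not measured folds. From the measured CONTROL values the difference was 2.21. It was 2.56 with quantile normalisation, 2.03 without scaling and 1.74 with local centring. With normexp and its offset of 50 units it was 0.78. It was 1.09 in the authors' deposited table, whose medians over all probes are −0.60 in CPE and 0.46 in CONTROL. The value of 1.19 was derived on the bright-area scale only and not on the others. The surroundings of this spot were also brighter in CPE, at 0.55 on average relative to the bright level, than in CONTROL, at −0.93; the part of that in the reading was not tested. The spot left the bright area with a wider neighbourhood or with a limit of 1 log2 unit.

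The second EGR1 probe in the bright area, A_73_P259551, read 48.0, 41.5, 20.3 and 41.7 units in CPE and 49.9, 33.2, 46.3 and 37.5 in CONTROL. The groups overlapped, and the scaled levels were −4.10 ± 0.14 and −4.09 ± 0.25 (SD, n = 4 each), with 4 CPE and 2 CONTROL arrays well above background. Its surroundings were alike in both groups, at −1.03 and −0.99. The third, A_73_P038551, read 342.8, 693.0, 295.7 and 267.7 units in CPE and 340.1, 289.3, 284.5 and 9.15 in CONTROL; its surroundings were bright on 3 CPE arrays and no CONTROL array. Both bright probes are shown because they disagree: they stand for different stretches of EGR1, and only the first differed between groups.
EGR1 A_73_111154, bases 1 to 30: aaacaaagtgactgtttggcttataaacac
EGR1 A_73_P259551: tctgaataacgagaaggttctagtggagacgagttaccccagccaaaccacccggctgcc

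EGR2 was well above background on all 8 arrays at A_73_104588, with 402.9, 471.9, 295.4 and 280.3 units in CPE and 485.8, 363.1, 377.4 and 95.9 in CONTROL. The groups overlapped, the lowest value being that of CONTROL array 4, the one array on which its surroundings were dark. Scaled over the whole array the difference was −0.62, where the median of all probes tested was −0.81. The other EGR2 probe, A_73_P106456, lay in dark surroundings on all arrays; it read 120.2 units on CPE array 3, 3.72 to 10.76 on the other 7, and was not well above background on any. EGR3 had no array well above background at either probe. One of them, A_73_P086581, lay in the bright area and read 6.59 to 19.2 units in CPE and 8.03 to 10.15 in CONTROL, so an EGR3 transcript was not detectable there at the level this probe can read.

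NR4A1, or NUR77, marks recent antigen receptor signalling in lymphocytes. It was well above background on all 8 arrays at A_73_105006, although that spot lay in dark surroundings on every array. It read 1093, 1558, 2132 and 943.7 units in CPE and 1473, 708.6, 500.5 and 612.8 in CONTROL. The groups overlapped through CONTROL array 1. Scaled over the whole array the difference was −0.09, and the surroundings averaged −2.17 in CPE and −4.31 in CONTROL relative to the bright level. At A_73_P090191 NR4A1 read 79.5, 9.42, 82.8 and 67.4 units in CPE and 90.6, 62.3, 52.2 and 15.0 in CONTROL. The lowest arrays, CPE array 2 and CONTROL array 4, had the darkest surroundings of their group, at −3.71 and −2.44. The third NR4A1 probe and the single probe of NR4A3, a close relative that also follows antigen receptor signals, were not well above background on any array. The start of the strongest NR4A1 probe is shown as the member probe that gave the strongest readings inside dark surroundings on all arrays.
NR4A1 A_73_105006, bases 1 to 30: tcctacttgctctcttcctgccctccttcc

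**Figure D3:**
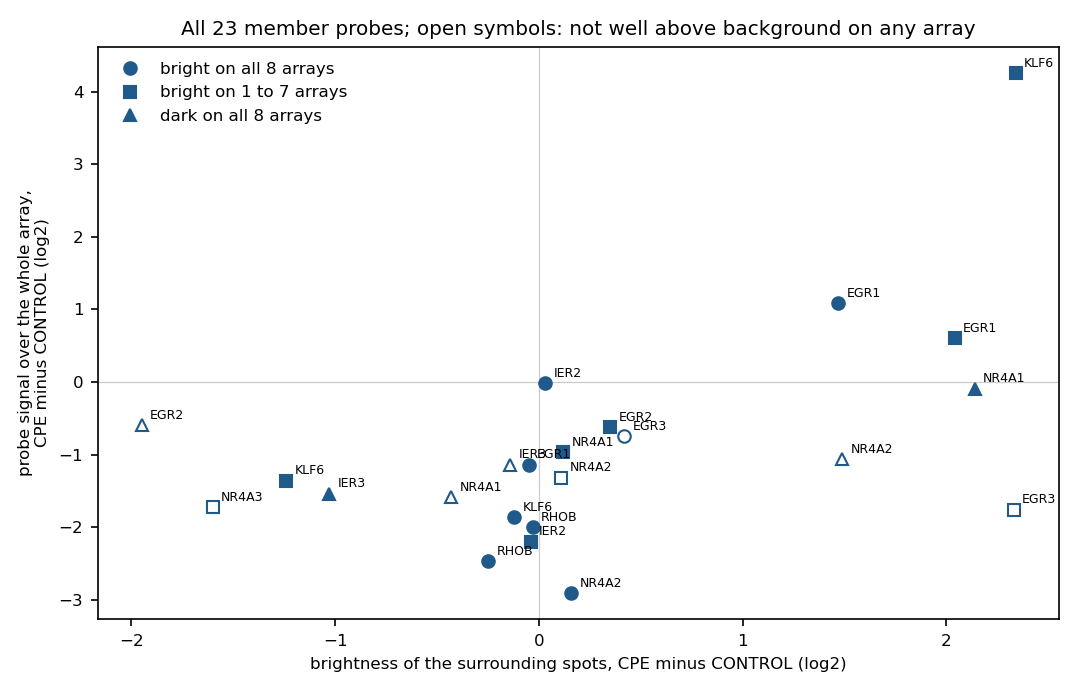
Each of the 23 member probes by the brightness of its surrounding spots, CPE minus CONTROL in log2 units (horizontal), and its own log2 difference scaled over the whole array (vertical). Open symbols were not well above background on any array. The KLF6 probe at 4.26 and the EGR1 probes at 1.09 and 0.61 have surroundings brighter in CPE. So do NR4A1 A_73_105006 at −0.09, EGR3 A_73_P203962 at −1.76 and NR4A2 A_73_P338101 at −1.06. For the NR4A2, RHOB and KLF6 probes of the bright area, surroundings differ by at most 0.25 log2 units between groups. On the vertical scale, the median difference of their 61 nearest spots was −1.40 (NR4A2), −1.35 (KLF6), and −1.33 and −1.60 (RHOB).

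Over the whole array, 11 member probes had enough signal for the fit: 1 was past the threshold as higher, the KLF6 probe A_73_P250821, and 4 as lower, the bright probes of NR4A2, KLF6 and RHOB. In 5 the groups did not overlap. Over all 14932 probes in that fit, 38.9% were past the threshold, 17.4% higher and 21.6% lower, and the groups did not overlap in 46.1%. The member median was −0.62 against −0.81 over all probes. In the authors' deposited table of log2 group averages, 20 of the 23 member probes were lower in CPE and 3 higher. The medians over all probes in the authors' deposited table are −0.60 in CPE and 0.46 in CONTROL, so the whole table leans lower in CPE and nothing is read from this count. The authors' deposited table gives −2.91 for NR4A2 A_73_115943, −1.86 and 4.25 for the overlapping KLF6 probes, −2.0 and −2.48 for RHOB, and −0.02 for IER2 A_73_P244360 as CPE minus CONTROL. All 8 probes not well above background on any array are lower in CPE in the authors' deposited table, with differences of −1.77 to −0.59, which lie around that general shift.

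The probes of the members also differed in sequence make-up. GC content was 35% to 60% among the 23 probes, with a median of 45% over all probes on the array. The letters AATAAA, searched on the strand as printed, were found in 2 of 23 member probes (IER2 and RHOB, above) and 9.35% of all 43653 probes; its reverse complement, TTTATT, was in 4 and 3.46%. The letters ATTTA, the core of AU-rich elements that shorten the life of many early transcripts, were found in 4 of 23 member probes (EGR3, NR4A2, IER3 and KLF6) and 7.45% of all probes, and its reverse complement, TAAAT, in 4 and 8.68%. The NR4A2 and KLF6 probes that hold ATTTA are A_73_115943 and A_73_P250821, whose differences had opposite signs. These matches are a description of the printed letters.

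Evenness between arrays of a group varied among the bright members. The pooled SD within groups of the 5 probes well above background throughout lay between the 27.5 and 75.9 percentiles of all bright probes of that kind, lowest for NR4A2 and highest for IER2. Ranked against the same probes, EGR1 A_73_111154 lay at the 99.6 percentile, EGR1 A_73_P259551 at 59.8 and the EGR3 probe A_73_P086581 at 90.6. None of these was itself well above background on all 8 arrays, so their ranks are set against better detected probes. Over the 8 arrays, with each probe centred on its own mean, the profiles nearest to NR4A2 among 5771 named probes were those of SLC23A3 and NID1, at a root mean square difference of 0.060 and 0.084 log2 units. Nearest to KLF6 were ASMTL (0.043) and FGD3 (0.051), and nearest to IER2 were PHF14 (0.104) and NACA (0.113). RHOB at A_73_P050851 was nearest to AKAP11 (0.064) and IL1RN (0.066), and at A_73_114598 to KCNMB1 (0.093) and VCPIP1 (0.10). Among the members, KLF6 and RHOB A_73_114598 differed by 0.225 and NR4A2 and RHOB A_73_P050851 by 0.228, less than the 2 RHOB probes from each other (0.285). IER2 differed from the other 4 by 0.977 to 1.483. These distances include the group difference known when the members were chosen, so they are no separate result. SLC23A3 and NID1, for instance, had log2 differences of −1.82 and −1.73, near the −1.79 of NR4A2.

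Other early-response genes were tested in the bright area, from a list of 47 genes found on the array. Of 16 with enough signal, 7 fell, 3 rose and 6 did not pass (adjusted p under 0.05, limma), where 23.9% of all probes were lower and 24.5% higher. The median log2 difference was −0.45, against 0.03 over all probes. FOS, a subunit of AP-1, fell by 2.63 (SE 0.08, adjusted p = 8.4e-07) and DUSP1, the phosphatase that ends MAP kinase signalling, fell by 2.01 (SE 0.09, adjusted p = 3.47e-06). ZFP36L2, which binds AU-rich elements and speeds mRNA decay, fell by 0.85 (SE 0.08, adjusted p = 7.11e-05), with −1.03 at a second probe. FOSB rose by 0.68 (SE 0.11, adjusted p = 0.00164) and PPP1R15A, a stress-induced phosphatase subunit, by 0.40 (SE 0.10, adjusted p = 0.00848). The third gene that rose had a larger difference, 1.99, but passed the background call on 4 arrays only and is not named. Without scaling between arrays the rises of FOSB and PPP1R15A lost their call (adjusted p = 0.239 and 0.598, limma), and 1 gene of the list was called higher. With normexp that of PPP1R15A was lost too (0.193).

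Regulators upstream of the members include the MAP kinases and the factors that bind serum response, cAMP response and MEF2 elements. Of 33 on the array, 16 had enough signal in the bright area. Of these, 5 fell, none rose and 11 did not pass, where 23.9% of all probes were lower and 24.5% higher. Their median log2 difference was −0.09. MEF2A, a factor that binds MEF2 elements, fell by 0.99 (SE 0.11, adjusted p = 0.00014). CREBBP, a coactivator, fell by 0.52 at its strongest probe and by 0.57 at another but rose by 1.17 at one more (adjusted p = 0.00111, 0.00463 and 1.38e-05), so its probes disagree; without scaling the first lost its call (0.0634) at a larger difference of −0.70. With local centring, 11 of the 16 were called, 5 of them as higher. In that setting 5698 of all 8006 probes were called, 3568 of them as higher.

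Partners and relatives of the members were counted in the same way. Of 23 on the array, 11 had enough signal. Of these, 3 fell, 2 rose and 6 did not pass, where 23.9% of all probes were lower and 24.5% higher. The median log2 difference was 0.07, against 0.03 over all probes. These counts are near the shares over all probes, so nothing is read from them. RXRA, the retinoid receptor with which NR4A1 and NR4A2 pair, fell by 1.80 (SE 0.09, adjusted p = 4.1e-06), from a level of 1.93 ± 0.05 in CONTROL to 0.13 ± 0.13 in CPE (SD, n = 4 each). NAB2, a corepressor of EGR factors, rose by 0.54 (SE 0.12, adjusted p = 0.00756), with 0.11 at another probe (adjusted p = 0.567), and lost its call without scaling (0.457). KLF9 rose by 1.04 (SE 0.14, adjusted p = 0.000513), a call that ended with normexp (0.374). SP3 fell by 0.52 and KLF13 by 0.41 (adjusted p = 0.00257 and 0.00819), and both calls ended without scaling (0.0667 and 0.099), where the differences were larger, −0.70 and −0.59; with normexp that of SP3 ended too (0.0942). RHOA, the constitutive relative of RHOB, had a difference of −0.03 (SE 0.08, adjusted p = 0.815).

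**Figure D4:**
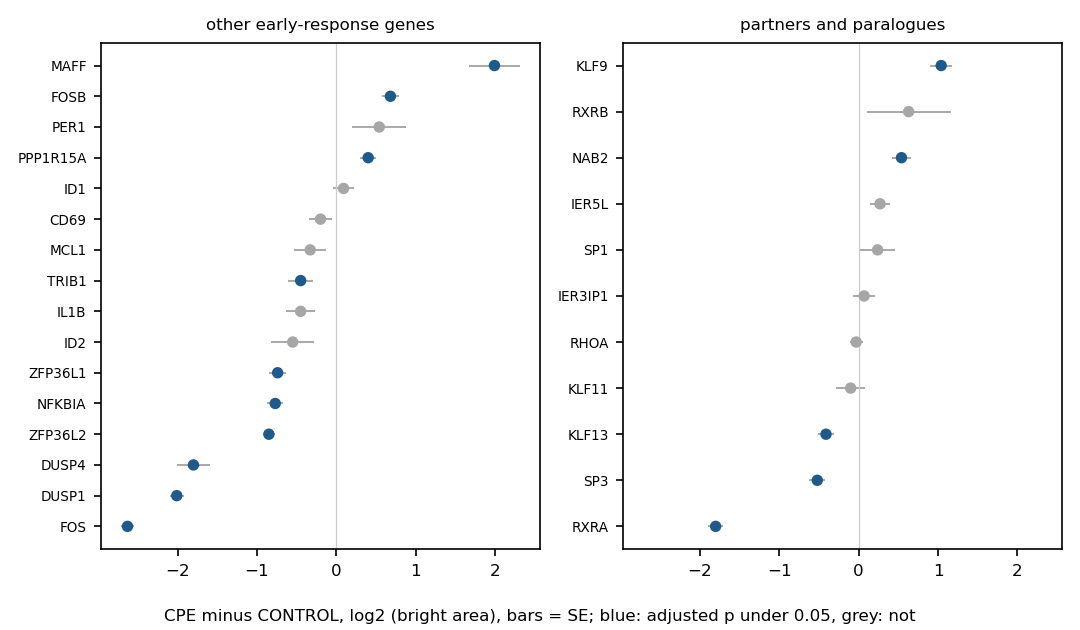
Log2 difference, CPE minus CONTROL, in the bright area for tested genes of 2 lists: other early-response genes (16) and partners and paralogues (11). Bars are the SE of the limma fit, blue points had an adjusted p under 0.05 and grey points did not. FOS and DUSP1 lie lowest on the left and RXRA on the right.

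Markers of blood cells were present: leukocyte, neutrophil, monocyte, T cell, B cell, platelet and red cell lists each had tested genes in the bright area, and ALB, a liver gene whose spot lay there too, was not well above background on any of the 8 arrays. Cell type markers moved between the groups as well, where 24.5% of all probes in the bright area were called higher and 23.9% lower. Of 7 T cell markers tested, 6 rose and none fell, and their summed level was 78.0 to 107 in CPE and 51.2 to 58.6 in CONTROL (linear units of the 75th percentile). Of 5 neutrophil markers, 4 fell and 1 rose, with a summed level of 103 to 116 and 98.6 to 110. That sum mostly follows S100A12, the one that rose, at a log2 level of 6.58 in CPE and 6.33 in CONTROL. CSF3R, CXCR1, CXCR2 and ALPL fell by 0.92, 0.99, 1.12 and 2.23. Of 10 on the array, LTF lay in the bright area and passed the background call on none. Of 3 monocyte markers 1 fell (19.7 to 21.6 against 25.5 to 28.3), of 4 B cell markers none passed (31.8 to 39.1 against 33.8 to 36.9), and the platelet marker PPBP rose by 1.47 (SE 0.14, adjusted p = 6.64e-05, limma; summed level 1.38 to 1.94 against 0.515 to 0.658). The part of these shifts in the readings of NR4A2, KLF6, RHOB and IER2 was not tested.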

How the data were processed

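The deposited scanner file of each array holds signal intensity by spot. The submitters' processing notes name Agilent Feature Extraction 10.10.1.1; the processed intensity in the deposited files is background-subtracted and spatially detrended, per the file headers, and not scaled between arrays. The authors' deposited table holds log2 group averages. These match log2 signal minus each array's 75th percentile, centred on each probe's median over the 8 arrays: 99.6% of probes lay within 0.1 of it in each group. The same scaling was used here, over the bright area or the whole array, leaving out 1417 control spots and 12 to 73 outlier spots per array. Probes that passed the background call on every array of CPE, of CONTROL or of both were fitted with limma 3.58.1 in R 4.3.3 (lmFit and eBayes, two-sided, Benjamini-Hochberg over all probes), a script tested on simulated data. Probes were named by transcript accession (26832) or file symbol (RefSeq names, ARS-UCD2.0). List genes are read at their strongest probe; of each list, up to 3 rises and 3 falls are named among called genes well above background on all 8 arrays whose groups did not overlap; 1 gene that the rule names is not reported here. Members, lists and the bright area were chosen with earlier results of these data known. The number of arrays limits precision.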

Additional observations from a re-analysis of the deposited data

Results flagged for a closer look

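In 7 of 46 groups of 4 arrays, 1 array lay far from the other 3 of its group (Dixon's criterion). Chance gives about 1 in 20 independent groups. These groups share the same 8 arrays, so nothing is read from the count. In the bright area these were CPE array 3 for KLF6 A_73_105540, at a log2 level of 2.81 against 3.26 to 3.28, CONTROL array 4 for RHOB A_73_P050851, at 1.56 against 1.32 to 1.33, and CONTROL array 2 for EGR1 A_73_P259551, at −4.46 against −3.98 to −3.95. On the whole-array scale they were CONTROL array 4 for EGR1 A_73_P038551, at −2.54 against 1.18 to 1.3, and for EGR2 A_73_104588, at 0.85 against 1.63 to 1.69, CPE array 3 for the same EGR2 probe, at 0.08 against 1.05 to 1.12, and CPE array 2 for NR4A2 A_73_P368881, at −2.71 against −3.54 to −3.42. These EGR1 and EGR2 spots had dark surroundings on CONTROL array 4, at −4.61 and −3.0. The NR4A2 probe was not well above background on any array.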

How the results depend on the processing

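In the bright area, 3876 probes were called (1960 higher, 1916 lower), against 1458 (426 and 1032) without scaling, 1692 with normexp on median signals and 2488 at an adjusted p under 0.01; leaving out 1 array gave 3203 to 4397. After local centring 3568 were higher and 2130 lower, and without a filter on dim probes 1990 and 3528. Over the whole array, 5813 were called (2591 higher, 3222 lower), against 3130 with normexp, 2724 (1911 and 813) at 0.01, 3673 (209 and 3464) for probes well above background on all 8 arrays, and 3760 to 6817 with 1 array left out, the lowest without CONTROL array 2; the split was 3247 and 1145 without scaling and 3912 and 2339 with scaling to bright probes. Upstream regulators had 5 calls, against 3 without scaling, 2 with normexp, 2 at 0.01, 3 with a limit of 1 log2 unit and 11 with local centring. Partners and paralogues had 5, against 2 without scaling and 3 with normexp. Leaving out 1 array gave 9 to 10 early-response genes, 4 to 5 regulators and 5 to 6 partners. Among members in the bright area, IER2 turned to −0.02 in the authors' averages, which lean lower in CPE as a whole. NR4A2 ran from −2.91 to −0.89, KLF6 from −1.86 to −0.51, and RHOB from −2.48 to −0.92 and −2.0 to −0.49. EGR1 A_73_111154 ran from 0.78 to 2.58 and EGR1 A_73_P259551 from −1.14 to 0.25. Except for EGR1 A_73_111154, the low end of each range is the authors' whole-array average. The lowest value in the bright area came without scaling. It was −1.97 for NR4A2, −0.92 for KLF6, −1.53 and −1.05 for RHOB, and −0.19 for EGR1 A_73_P259551. Same-numbered arrays did not deviate together in all pairs (r = 0.0584, −0.0213, 0.106 and 0.224), nor did each array correlate best with its own number; with the replicate number as a block, 3755 bright probes and 7032 over the whole array were called. Slide as a block could not be fitted, and normexp on mean signals was not run; its form on median signals was chosen after seeing the data.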
